A study of Mus musculus with 6 samples.

Results

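The 10 imprinted genes *H19*, *Igf2*, *Igf2r*, *Cdkn1c*, *Dlk1*, *Meg3*, *Peg3*, *Mest*, *Plagl1* and *Grb10*, which belong to the fetal growth network, were examined in RNA-sequencing of cultured cardiac fibroblasts (CFs). They were found by gene symbol, and all 10 were among the 19446 genes of the table and among the 15948 that passed a filter of at least 10 reads in at least 2 libraries. They were chosen by name as imprinted genes, with the measured differences between CharmeKO and WT in these libraries known, so those differences between genotypes are given as a description. CFs came from 5-week-old mice in 2 groups of 3 libraries, wild type (WT) and CharmeKO, both C57BL/6J, the second carrying a PolyA signal in the gene for *Charme*, a long non-coding RNA. The cells had grown out of atrial tissue fragments in serum-rich medium. The study's methods give 6 littermates aged 4 to 6 weeks as the source of such cultures, but not how these animals were divided among the libraries. P-values therefore measure only the spread between these libraries.

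Imprinted genes are transcribed mainly from the copy inherited from 1 parent, and many of them set the pace of growth before birth. *Igf2* and the non-coding RNA *H19* lie next to each other and share enhancers, and a methylated control region between them makes the paternal copy express *Igf2* and the maternal copy *H19*. Paternally expressed members such as *Igf2*, *Dlk1*, *Peg3* and *Mest* are in general linked to growth, whereas the maternally expressed *H19*, *Igf2r*, *Cdkn1c* and *Grb10* are in general linked to its restraint, and most of the network is switched down in the heart after birth. The parental origin of the reads was not measured here.

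Small RNAs lie inside several of these genes, and *H19* and *Igf2*, whose values varied most, each hold a microRNA hairpin. The mature sequences (RefSeq, GRCm38) are shown because their hairpins lie within these genes, with the seed, bases 2 to 8, in capitals.
miR-675-5p, in *H19*: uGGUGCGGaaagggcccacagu
miR-675-3p, in *H19*: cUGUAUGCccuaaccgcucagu
miR-483-5p, in *Igf2*: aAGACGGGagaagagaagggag
miR-483-3p, in *Igf2*: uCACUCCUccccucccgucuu
The 4 seeds all differ. All 84 bases of the *Mir675* hairpin lie in exons of *H19*, whereas none of the 73 bases of the *Mir483* hairpin lies in an annotated exon of *Igf2* (GENCODE M21), so that the spliced *Igf2* transcript does not contain it. The hairpins lie on the minus strand of chromosome 7, with miR-675-5p at 142577112 to 142577133 and miR-483-5p at 142654968 to 142654989. The libraries were made from polyadenylated RNA, so the microRNAs themselves were not measured.

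Libraries held 38330019 to 46797446 reads assigned to genes. Values are normalised reads, that is, reads divided by the size factor of the library, and differences are on the scale of log2(normalised reads + 1) unless stated. The feature taken as the added *Charme* entry, an inference from its name, was counted 5, 15 and 11 times in WT 1, 2 and 3, as against 0, 6 and 3 times in CharmeKO 1, 2 and 3, so the groups overlapped at this depth. All 12 fibroblast markers were detected, and their summed level was 889801 to 1721002 normalised reads in WT and 1163496 to 1576362 in CharmeKO. Of 10 cardiomyocyte markers 4 were in the table, without *Myh6*, *Myh7* and *Actc1*, and they summed to 140 to 593 normalised reads in WT and 159 to 799 in CharmeKO.

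*H19*, a non-coding RNA of growing tissues, had 5.91, 173 and 105 normalised reads in WT 1, 2 and 3 and 9.61, 2157 and 471 in CharmeKO 1, 2 and 3. CharmeKO 2 and 3 exceeded every WT library, whereas CharmeKO 1 lay below WT 2 and 3, so the groups overlapped. The mean was 94.8 ± 84.0 (SD, n = 3) in WT and 879 ± 1130.3 in CharmeKO. The log2 difference was 2.13 with a standard error (SE) of 2.13. SEs here and below, unless stated, are from the fit by genotype alone and so include the spread between replicate numbers. The labels state no pairing, so same-numbered libraries are compared as pairs by inference, which is least certain for number 3. *H19* was higher in CharmeKO within each such pair, by 0.62, 3.63 and 2.15 for numbers 1, 2 and 3. With few reads in both libraries numbered 1, 6 in WT and 10 in CharmeKO, the first of these differences is poorly determined. In bulk RNA fewer cells of a type and less RNA per cell cannot be told apart.

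*Igf2*, the fetal insulin-like growth factor, had 22.7, 85.4 and 99.97 normalised reads in WT 1, 2 and 3 and 32.7, 37789 and 220.05 in CharmeKO 1, 2 and 3. A single library, CharmeKO 2, stood apart with 172-fold the next highest value, and the groups overlapped through CharmeKO 1. This library held 38438 reads of *Igf2*, which were 0.0965% of its total. The gap of 7.42 log2 units between CharmeKO 2 and the next library was the largest such gap of a highest value among all 15948 tested genes. The WT mean was 69.4 ± 41.1 and the CharmeKO mean 12681 ± 21745 (SD, n = 3), with a log2 difference of 3.47 (SE 2.43). Without CharmeKO 2 the difference was 0.55, and that of *H19* was 0.49.

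The library that carried the *Igf2* and *H19* peak also stood apart in other genes, named here after their values were seen. Peaks in a single library were not particular to CharmeKO 2, where 10 genes led the next library by at least 3 log2 units. Such genes numbered 7 in WT 2, 11 in WT 3, 10 in CharmeKO 3 and 0 in WT 1 and in CharmeKO 1. *Saa3*, an acute phase serum amyloid, had 36.4 to 525 normalised reads in WT, 66.3 in CharmeKO 1, 368 in CharmeKO 3 and 73492 in CharmeKO 2, the second largest gap after *Igf2* at 7.13 log2 units. *Xist*, the RNA of X inactivation, was at 7.86 normalised reads in CharmeKO 2, against 9850.02 to 28790 in the WT libraries and 2162 and 8126 in CharmeKO 1 and 3. Their part in the *Igf2* result was not tested. The Y-linked gene *Ddx3y* had 92.3 normalised reads in WT 3 and 2081 to 3204 in the 5 other libraries. *Kdm5d*, *Eif2s3y* and *Uty* were likewise lowest in WT 3, where *Xist* was highest. The labels give no sex for the animals. A difference in sex between libraries therefore cannot be told apart from a change of these X- and Y-linked genes.

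**Figure D1:**
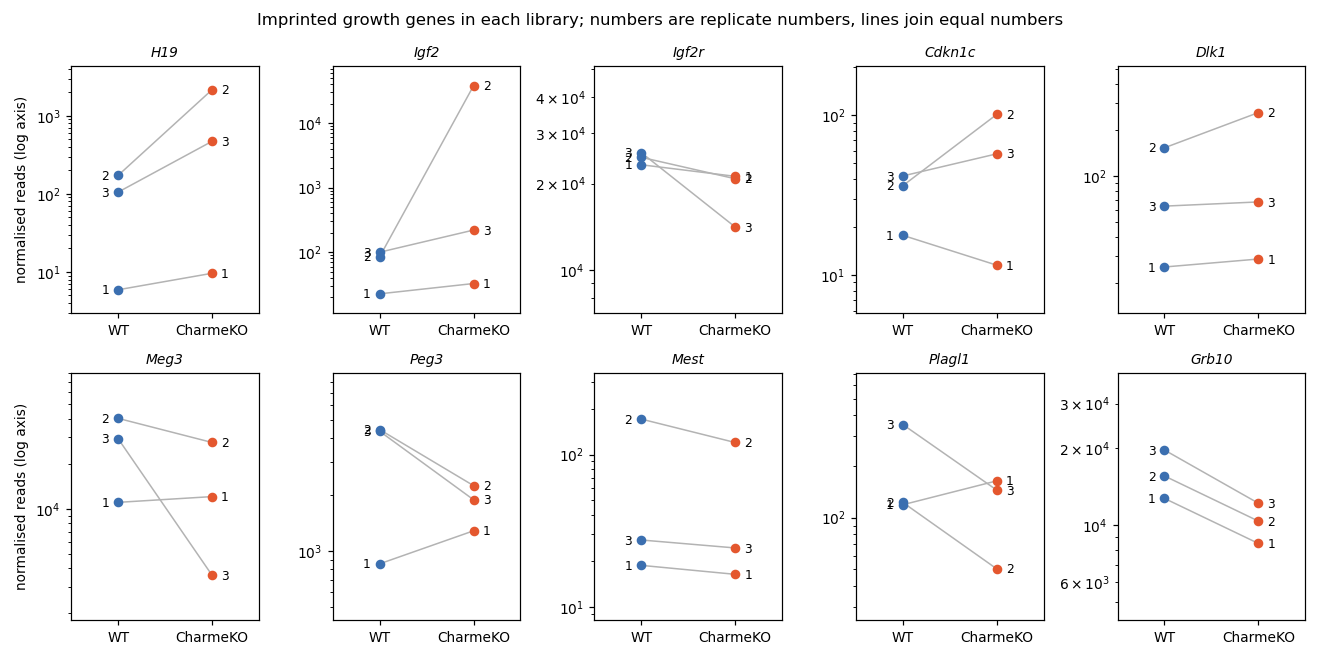
Normalised reads (log axes) of the 10 imprinted growth genes in 3 WT (blue) and 3 CharmeKO (orange) libraries, with replicate numbers beside the points and lines joining equal numbers. *Igf2* in CharmeKO 2 lies at 37789, far above all other libraries, while all 3 lines of *Grb10* slope downward.

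The ratio of *Igf2* to *H19*, both per kb of annotated exon, was 1.65, 0.212 and 0.407 in WT 1, 2 and 3 and 1.46, 7.53 and 0.201 in CharmeKO 1, 2 and 3. *Igf2* thus exceeded *H19* per length in both libraries numbered 1 and in CharmeKO 2, and lay below it in the 3 other libraries. In CharmeKO 3 both genes exceeded their highest WT value. *H19* spans chr7:142575529-142578143 and *Igf2* chr7:142650766-142666816, both on the minus strand (GRCm38, GENCODE M21), with 72.6 kb between them. The antisense gene *Igf2os*, which overlaps *Igf2*, was counted 0, 0 and 4 times in WT 1, 2 and 3. In CharmeKO 1, 2 and 3 it was counted 0, 25 and 4 times, too few to pass the filter. Its highest value lay in the library of the *Igf2* peak, which held 38438 reads of *Igf2*. Reads assigned to the wrong strand were not measured, so the 25 cannot be told apart from wrong-strand reads of *Igf2*. A further gene model of this annotation, *Gm49394*, shares 62.8% of the exonic length of *Igf2* on the same strand, and whether the annotation used for counting held it was not determined. Counting that discards reads on overlapping genes would lower *Igf2* in all libraries. Over the exonic length of *Igf2* outside *Gm49394*, a calculation added after the data were seen, the ratio to *H19* in WT 3 became 1.10 and so turned direction, while in WT 2 and CharmeKO 3 it was 0.571 and 0.540 and stayed below 1.

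The receptor genes behaved differently from the ligand. *Igf2r*, whose product binds IGF2 and clears it by way of the lysosome, had 23255, 24688 and 25629 normalised reads in WT 1, 2 and 3 and 21195, 20789 and 14114 in CharmeKO 1, 2 and 3. All 3 CharmeKO libraries lay below all 3 WT libraries. The difference was -0.41 (SE 0.227), with -0.13, -0.25 and -0.86 in the pairs, the last being by far the greatest. Without CharmeKO 3 it was -0.22. *Airn*, the non-coding RNA transcribed antisense to *Igf2r* from the paternal copy, had 246, 413 and 345 normalised reads in WT 1, 2 and 3 and 185, 336 and 384 in CharmeKO 1, 2 and 3, with overlapping groups. Counting used strand, but reads assigned to the wrong strand were not measured. *Airn* had 192 to 441 reads and *Igf2r* 16228 to 23614, and whether some *Airn* reads came from *Igf2r* was not tested.

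*Grb10*, an adaptor protein that restrains insulin and IGF receptor signalling, had 12738, 15598 and 19713 normalised reads in WT 1, 2 and 3 and 8489, 10385 and 12203 in CharmeKO 1, 2 and 3. Every CharmeKO library lay below every WT library, and the pairs differed by -0.59, -0.59 and -0.69, the most even differences among the 10 genes. The mean was 16017 ± 3506 in WT and 10359 ± 1857 in CharmeKO (SD, n = 3), a log2 difference of -0.62 (SE 0.237). Without WT 3 it was -0.46. Of all tested genes, 1.98% had all CharmeKO libraries below all WT libraries, and 2 of the 10 imprinted growth genes did, *Igf2r* and *Grb10*, in the contrast that was known when the list was made. None had all CharmeKO libraries above all WT libraries, against 2.14% of all genes. *Cobl* and *Ddc*, the listed imprinted genes within 1 Mb of *Grb10*, had log2 differences of -0.96 (SE 1.30) and -0.10 (SE 1.13), with overlapping groups for each.

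Both genes are long and well covered. Per kb of exon, *Igf2r* had 2498, 2652 and 2753 normalised reads in WT 1, 2 and 3 and 2277, 2233 and 1516 in CharmeKO 1, 2 and 3, and *Grb10* had 1402 to 2169 in WT and 934 to 1343 in CharmeKO. *Igf2* had 3.96, 14.9 and 17.5 per kb in WT 1, 2 and 3 and 5.71, 6603 and 38.5 in CharmeKO 1, 2 and 3. *Igf2r* exceeded *Igf2* per kb in 5 of the 6 libraries, also with *Igf2* taken outside *Gm49394*, and in CharmeKO 2 *Igf2* was 2.96-fold *Igf2r*. *Igf1*, the ligand that takes over after birth, had 322, 1068 and 451 normalised reads per kb in WT 1, 2 and 3 and 359, 600.3 and 403 in CharmeKO 1, 2 and 3. The ratio of *Igf2* to *Igf1* per kb was 0.0123 to 0.0388 in WT, 0.0159 and 0.0955 in CharmeKO 1 and 3, and above 1 in CharmeKO 2 alone, where *Igf2* exceeded *Igf1* per length. *Igf1r*, the receptor that signals for both, had 346 to 638 per kb in WT and 340 to 451 in CharmeKO.

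**Figure D2:**
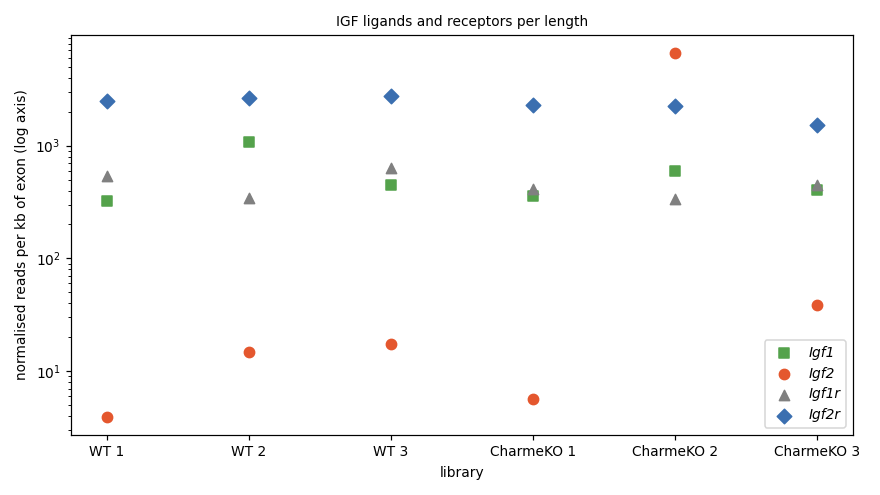
Normalised reads per kb of annotated exon (log axis) of the ligand genes *Igf1* and *Igf2* and the receptor genes *Igf1r* and *Igf2r* in each of the 6 libraries. *Igf2* is the lowest of the 4 in 5 libraries and the highest in CharmeKO 2, at 6603.

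The start regions of *Igf2*, *Igf2r* and *Grb10* are printed because these genes carry the most marked patterns, *Igf2* in 1 library and the other pair with groups that do not overlap. Each window runs from 250 bases before to 50 bases after an annotated start (RefSeq, GRCm38), 5′ to 3′ on the strand of the gene, with CG dinucleotides, the letters that DNA methylation acts on, in capitals. The *Igf2* window is the third of its 4 annotated starts, the one richest in CG. That of *Grb10* is the first of 2, likewise the richer.
*Igf2*, chr7:142658755-142659054, minus strand: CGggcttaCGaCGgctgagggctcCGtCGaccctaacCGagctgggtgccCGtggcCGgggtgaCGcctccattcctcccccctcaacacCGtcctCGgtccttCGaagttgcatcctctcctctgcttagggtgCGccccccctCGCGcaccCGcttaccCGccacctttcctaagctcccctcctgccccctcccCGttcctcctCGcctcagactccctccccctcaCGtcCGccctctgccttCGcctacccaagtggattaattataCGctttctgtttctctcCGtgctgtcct
*Igf2r*, chr17:12769657-12769956, minus strand: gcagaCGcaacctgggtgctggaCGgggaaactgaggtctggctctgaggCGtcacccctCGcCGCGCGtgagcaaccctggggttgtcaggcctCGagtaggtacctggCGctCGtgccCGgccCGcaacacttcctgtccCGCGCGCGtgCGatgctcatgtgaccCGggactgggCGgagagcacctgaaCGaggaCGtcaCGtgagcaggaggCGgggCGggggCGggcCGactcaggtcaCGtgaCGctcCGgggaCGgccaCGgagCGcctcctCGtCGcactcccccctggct
*Grb10*, chr11:12037371-12037670, minus strand: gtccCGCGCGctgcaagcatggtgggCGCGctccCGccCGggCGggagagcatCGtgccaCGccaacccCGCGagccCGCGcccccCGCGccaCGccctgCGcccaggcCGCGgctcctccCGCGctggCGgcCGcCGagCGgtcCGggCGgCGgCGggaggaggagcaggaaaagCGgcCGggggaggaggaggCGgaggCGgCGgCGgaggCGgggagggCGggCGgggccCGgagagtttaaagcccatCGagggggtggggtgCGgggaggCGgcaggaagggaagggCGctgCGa
The windows hold 24, 34 and 45 CG dinucleotides, against a median of 7 over all 32851 windows. All 3 have over 50% GC and an observed-to-expected CG ratio above 0.6, as do 33.3% of all windows and 6 of the 15 windows found for 8 of the imprinted growth genes. The 3 other *Igf2* starts do not meet both criteria, and neither does the second *Grb10* start, which holds 9 CG dinucleotides. No window was found for *H19* and *Cdkn1c*. The table counts reads per gene, so it does not tell which start was used, and methylation was not measured.

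*Cdkn1c*, the cyclin-dependent kinase inhibitor p57, lies 792 kb from *Igf2* at chr7:143458339-143461050. It had 17.7, 36.3 and 41.8 normalised reads in WT 1, 2 and 3 and 11.5, 101 and 57.4 in CharmeKO 1, 2 and 3, a difference of 0.44 (SE 0.850). CharmeKO 2 was the highest library and CharmeKO 1 the lowest, so the CharmeKO libraries enclosed the WT libraries. Without CharmeKO 2 the difference was -0.20. *Kcnq1ot1*, the non-coding RNA of the control region near *Cdkn1c*, had 394, 573 and 480.1 normalised reads in WT 1, 2 and 3 and 201, 361 and 555 in CharmeKO 1, 2 and 3. The other listed imprinted genes within 1 Mb of *Igf2* that passed the filter, *Ascl2*, *Tspan32*, *Cd81*, *Tssc4*, *Slc22a18* and *Nap1l4*, had differences between -0.31 and 0.32, and in none of them was CharmeKO 2 more than 0.28 above WT 2 apart from *Ascl2* and *Tssc4*, by 1.61 and 0.48. *Ascl2* had 3.20 to 13.2 normalised reads in these libraries.

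*Dlk1* and *Meg3* lie 77.7 kb apart on chromosome 12, at chr12:109452823-109463336 and chr12:109541001-109571726, both on the plus strand. *Dlk1*, a membrane protein of progenitor cells related to Notch ligands, had 25.6, 153 and 63.7 normalised reads in WT 1, 2 and 3 and 28.8, 259 and 67.8 in CharmeKO 1, 2 and 3. Values followed the replicate number more than the genotype: number 2 was highest and number 1 lowest in both groups, and the difference was 0.34 (SE 0.964). The pairs differed by 0.17, 0.76 and 0.09.

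*Meg3*, a maternally expressed non-coding RNA, had 11028, 40091 and 29309 normalised reads in WT 1, 2 and 3 and 12046, 27691 and 3608 in CharmeKO 1, 2 and 3. CharmeKO 3 was the lowest library, by 1.61 log2 units below the next, and the groups overlapped. The difference was -1.14 (SE 0.813), with 0.13, -0.53 and -3.02 in the pairs, and -0.36 without CharmeKO 3. The maternally expressed non-coding RNAs downstream on the same strand showed the same low library: *Rian* had 6554, 13042 and 17207 normalised reads in WT 1, 2 and 3 and 6739.7, 8522 and 1763 in CharmeKO 1, 2 and 3. *Mirg* had 174, 659 and 721 in WT 1, 2 and 3 and 159.6, 440.4 and 67.0 in CharmeKO 1, 2 and 3. Per kb of exon, the ratio of *Meg3* to *Rian* lay between 1.70 and 3.28 in all 6 libraries, whereas that of *Meg3* to *Dlk1* was 82.1 to 144 in WT and 131, 33.5 and 16.6 in CharmeKO 1, 2 and 3. *Dio3*, at the far end of the domain, had 4.92, 102.5 and 27.5 normalised reads in WT 1, 2 and 3. It had 2.88, 10.8 and 77.4 in CharmeKO 1, 2 and 3, and so was not low in CharmeKO 3. Low values in CharmeKO 3 were not particular to this domain, since 39 genes lay there at least 3 log2 units below the next library. Such genes numbered 0, 7 and 6 in WT 1, 2 and 3 and 4 and 8 in CharmeKO 1 and 2.

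**Figure D3:**
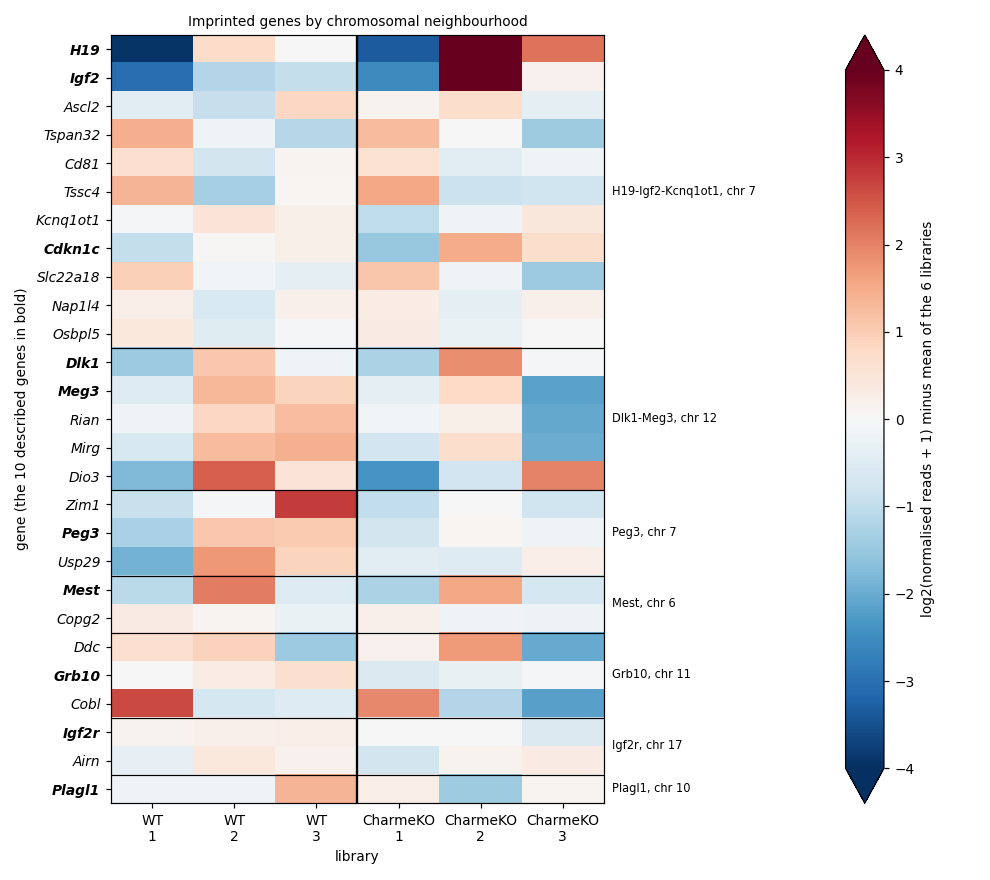
Colour gives log2(normalised reads + 1) minus the mean of the 6 libraries (columns) for the imprinted growth genes (bold) and the other listed imprinted genes within 1 Mb of them that were tested, in blocks by chromosomal neighbourhood. *H19* and *Igf2* are deep red in CharmeKO 2, and *Meg3*, *Rian* and *Mirg* are blue together in CharmeKO 3.

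*Peg3*, a zinc finger protein expressed from the paternal copy, had 854, 4444 and 4353 normalised reads in WT 1, 2 and 3 and 1281, 2233 and 1877 in CharmeKO 1, 2 and 3. CharmeKO 2 and 3 lay below WT 2 and 3, while WT 1 was the lowest library, and the difference was -0.54 (SE 0.656). The adjacent *Usp29* had 3.94, 59.8 and 33.0 in WT 1, 2 and 3 and 12.5, 11.8 and 20.9 in CharmeKO 1, 2 and 3, with the same directions in the pairs as *Peg3* (1.45, -2.25 and -0.63 against 0.58, -0.99 and -1.21). *Zim1*, on the other side of *Peg3*, stood at 624 normalised reads in WT 3 and at 44.2 to 87.5 elsewhere.

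*Mest*, a hydrolase of mesodermal tissue that is expressed from the paternal copy, had 18.7, 171 and 27.5 normalised reads in WT 1, 2 and 3 and 16.3, 119.9 and 24.4 in CharmeKO 1, 2 and 3. Both libraries numbered 2 were high and the 4 others low, and the difference was -0.29 (SE 1.07). Without WT 2 it was 0.67. *Copg2*, which overlaps the 3′ end of *Mest* on the opposite strand, had 1404 to 2099.6 normalised reads in WT and 1462 to 1919.98 in CharmeKO and no such peak. *Plagl1*, a zinc finger transcription factor that regulates other imprinted genes, had 119 and 123 normalised reads in WT 1 and 2, 352 in WT 3, and 164, 50.1 and 145 in CharmeKO 1, 2 and 3. WT 3 was the highest library and CharmeKO 2, where *Igf2* and *H19* peaked, the lowest, with a difference of -0.69 (SE 0.637). Without CharmeKO 2 it was -0.16.

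The spread over libraries was wide for most of these genes. From the lowest to the highest library, *Igf2* spanned 10.64 log2 units, a range reached or exceeded by 4 of the 15948 tested genes including itself, and *H19* spanned 8.29, reached by 22 genes. *Meg3*, *Mest*, *Dlk1* and *Cdkn1c* spanned 3.47, 3.31, 3.29 and 3.03, *Plagl1* 2.79 and *Peg3* 2.38. *Grb10* and *Igf2r*, the genes whose groups did not overlap, had the narrowest ranges, 1.22 and 0.86. Thus 6 of the 10 genes had a range of at least 3, against 12.7% of all tested genes. The median range of the 10 was 3.16, against 1.07 over all genes. Both values are descriptions, since the list was made with results of these libraries known. The genes compared were not matched for level, and few reads widen a range. In the library with fewest, *Cdkn1c*, *Mest* and *Dlk1* had 12, 17 and 26 reads.

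The replicate number took the largest share of the sum of squares in 8 of the 10 genes. It held 98.4% for *Mest*, 96.4% for *Dlk1*, 82.0% for *H19* and 78.0% for *Cdkn1c*. Its median over all tested genes was 73.8%, so a large replicate share was common and not particular to these genes. Genotype held the largest share in *Grb10*, 63.3%, and *Igf2r*, 52.9%, against a median of 5.91% over all tested genes. Libraries numbered 1 were low in both groups for *H19*, *Igf2*, *Cdkn1c*, *Dlk1*, *Peg3* and *Mest*. The same pair was high in the summed level of mesothelial and epicardial markers, 20562 normalised reads in WT 1 and 21854 in CharmeKO 1. The 4 other libraries had sums of 2823 to 6210.4. *Upk3b* followed the sum, with 4455 in WT 1 and 4537 in CharmeKO 1 against 297 to 656 in the 4 others. *Wt1*, also on this list, did not, with 213 in WT 1 and 301 in CharmeKO 1. It had 1011, 711 and 1500 in WT 2, WT 3 and CharmeKO 2, and 217 in CharmeKO 3. Of that list, 9 of 10 markers were in the table. Smooth muscle and pericyte markers, of which all 12 were in the table, summed to 58971 to 261875 in WT and 33967 to 156735 in CharmeKO, and 8 of the 12 were lower in CharmeKO in all 3 pairs. Macrophage and blood markers, 10 of 10 in the table, summed to 1934 to 8152 in WT and 1024 to 17538 in CharmeKO, and endothelial markers, 7 of 10, to 2715 to 4021 and 1269 to 5828. Their part in the imprinted genes was not tested.

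Across the transcriptome, limma with Benjamini-Hochberg adjustment called none of the 15948 genes between CharmeKO and WT (0%), and none of the imprinted growth genes was among calls. At an unadjusted p under 0.05 limma had 143 genes (0.897%) and edgeR 158 (0.991%). Both shares lie below the rate that this threshold sets for genes without a difference. The lack of calls in these fits by genotype alone therefore does not show that no gene differed. Of the 10 genes, 4 had a difference above 0, as did 50.4% of tested genes, and 6 below, with a median of -0.35 against 0.0022 over all tested genes. *H19*, *Igf2* and *Dlk1* were higher in CharmeKO in all 3 pairs, as were 16.4% of tested genes, and *Igf2r*, *Mest* and *Grb10* were lower in all 3, as were 14% of tested genes. Differences reached 1, up or down, in 3 of the 10, *H19*, *Igf2* and *Meg3*, and in 5.04% of tested genes. Without WT 2 the median over the 10 genes was 0.22, so its sign rested on that library.

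DESeq2 on the recovered reads called 8 genes (0.0502%), none of them among the 9 imprinted growth genes to which it gave an adjusted p. It gave none for *Igf2*. With the replicate number as a block it called 64 genes (0.401%), and *H19* and *Grb10* were among them, with adjusted p = 0.00866 and 0.000123. The log2 fold changes in that fit were 2.39 (SE 0.560) for *H19* and -0.63 (SE 0.118) for *Grb10*. limma with the same block called 0 genes, and its adjusted p was 0.7997 for both. Its SEs were 0.622 for *H19*, 0.0926 for *Grb10*, 0.282 for *Dlk1* and 0.298 for *Mest*. Without the block they were 2.13, 0.237, 0.964 and 1.07. For *Igf2* and *Igf2r* the SEs were 1.79 and 0.182 with the block and 2.43 and 0.227 without it. Since the list was made with this contrast known, these values describe the choice of fit and are no independent evidence.

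**Figure D4:**
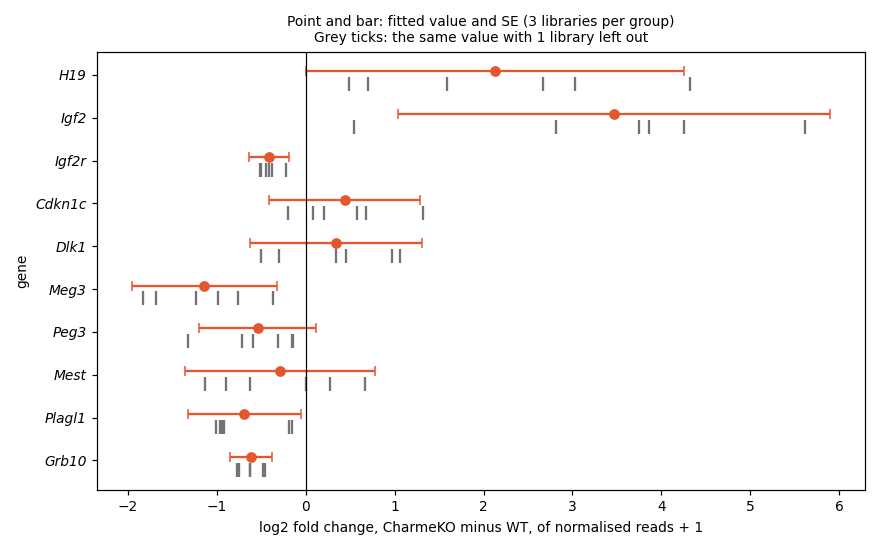
Log2 fold change, CharmeKO minus WT, of normalised reads + 1 for the 10 genes (points) with SE (bars, 3 libraries per group), and the same value with each library left out in turn (grey ticks). The ticks of *Cdkn1c*, *Dlk1* and *Mest* fall on both sides of 0, and those of *Igf2* run from 0.55 to 5.61.

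By the pattern over the 6 libraries, the genes most like *H19* among 11543 with a symbol and a mean of at least 100 normalised reads were *Pkdcc*, *Actr8*, *Zfp612*, *Parp1* and *Jmjd8*, with Pearson's r of 0.994, 0.994, 0.993, 0.993 and 0.992 on the log2 scale and Spearman's rho of 0.943 to 1. The 6 points are 3 pairs of libraries that share a replicate number. *Zfp612* ranged over 3.32 log2 units and *Pkdcc* over 2.95, whereas *Actr8* and *Parp1* ranged over 0.27 and 0.37, so that the likeness was one of order and spacing and not of size. Without WT 1 and CharmeKO 2, r lay between 0.985 and 0.988. The genes were picked for the highest r over these same libraries, so this is no independent check. In all, 540 genes had r above 0.9 with *H19*. The genes most like *Igf2* were *1110059E24Rik*, *Zfp956*, *Smim26*, *Mettl9* and *Saa3*, with r of 0.994, 0.991, 0.989, 0.986 and 0.982 and rho of 0.829 to 1. These rested more on the farthest libraries, CharmeKO 2 and WT 1, without which r was 0.928, 0.904, 0.913, 0.899 and 0.735. Of the 5, only *Saa3* had a range like that of *Igf2*, 10.94 against 10.64 log2 units.

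Among the other imprinted genes, 44 of 62 listed passed the filter, and limma called none (lowest adjusted p = 0.9999). Their median difference was -0.084, with 27 below and 17 above 0, and 4 were lower and 7 higher in CharmeKO in all 3 pairs. *Peg10*, a retrotransposon-derived gene of the placenta, had 2813, 2259 and 1773 normalised reads in WT 1, 2 and 3 and 3854, 2819.6 and 4197 in CharmeKO 1, 2 and 3. The groups did not overlap, but CharmeKO 2 lay only just above WT 1, with a difference of 0.67 (SE 0.241). *Dcn*, the collagen-binding proteoglycan decorin, peaked at 98888 in CharmeKO 2 against 14149 to 38799 in the 5 others, for a difference of 0.79 (SE 0.647). *Sfmbt2*, a Polycomb protein, and *Mirg* differed by -1.29 (SE 0.578) and -1.37 (SE 0.827).

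The IGF pathway held 25 tested genes of 27 listed, none called by limma (lowest adjusted p = 0.9999). Their median difference was -0.18, with 6 lower and 2 higher in CharmeKO in all 3 pairs. *Pappa*, a protease that frees IGFs from their binding proteins, had 6524, 3356 and 16242 normalised reads in WT 1, 2 and 3 and 4768, 917 and 1040.2 in CharmeKO 1, 2 and 3, a difference of -2.10 (SE 0.799). *Igfbp3*, an IGF carrier, had its highest value in the library of the *Igf2* peak, 18159, against 2256 to 10195 in WT and 2339 and 8255 in CharmeKO 1 and 3. *Igf2bp1*, which binds *Igf2* mRNA, lay at 67.8 normalised reads in CharmeKO 3 and between 505 and 1263 in the 5 other libraries, CharmeKO 3 being the one where *Meg3* was lowest, with a difference of -1.64 (SE 0.855). *Igf1r* and *Akt1* differed by -0.30 (SE 0.264) and -0.27 (SE 0.361).

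Of the genes listed as keeping imprints or regulating *H19* and *Igf2*, 23 of 28 were tested. None was called by limma (lowest adjusted p = 0.9999), with a median of -0.090. *Zfp57* and *Trim28*, which keep methylation at imprinted control regions, had 835 to 2355 and 6443 to 9551 normalised reads in WT and 929 to 2761 and 6756 to 10473 in CharmeKO, and differed by 0.23 (SE 0.508) and 0.10 (SE 0.253). *Hmga2*, a growth-promoting chromatin protein, differed by -1.02 (SE 0.831), with 1954 to 12001 in WT and 1762 to 7356 in CharmeKO. *Arid4a* and *Vezf1* differed by -0.26 (SE 0.260) and -0.22 (SE 0.172). All 24 cell cycle genes were tested and none was called by limma (lowest adjusted p = 0.9999), with a median of -0.066. Their summed level was lowest in both libraries numbered 2, 43136 in WT and 51989 in CharmeKO normalised reads, where *Mest* and *Dlk1* were highest. *Cdkn2a*, an inhibitor of the cell cycle, had 3359, 2079.9 and 3662 normalised reads in WT 1, 2 and 3 and 3835, 3715 and 4764 in CharmeKO 1, 2 and 3, so that all CharmeKO libraries exceeded all WT libraries, by 0.47 (SE 0.253). *E2f1*, *Bub1*, *Top2a* and *Ccnb1* differed by -0.25, -0.23, -0.20 and 0.14, with SEs of 0.155, 0.718, 0.561 and 0.652.

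**Figure D5:**
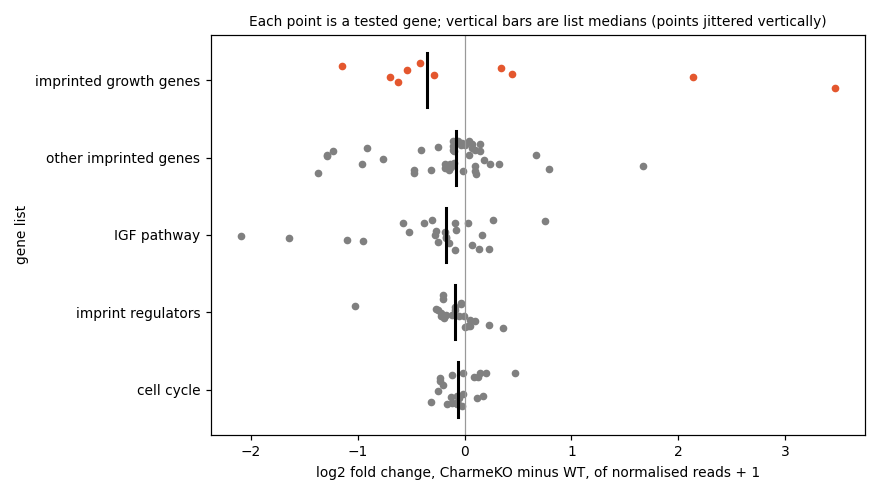
Log2 fold change, CharmeKO minus WT, of normalised reads + 1 for every tested gene (points) of the imprinted growth genes and of the other lists, with the median of each list as a vertical bar. The medians run from -0.35 to -0.066, and *Igf2* and *H19* are the points farthest to the right.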

How the data were processed

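RNA was extracted from cultured CFs and sequenced as polyadenylated RNA. The authors aligned reads with STAR to GRCm39, obtained strand-specific gene counts (STAR's reverse setting) from Ensembl release 87 plus *Charme*, dropped poorly covered genes and applied DESeq2 normalisation. Ensembl release 87 was built on GRCm38, so how this annotation was combined with GRCm39 was not determined. No tool version is given in the sources used here. STAR's gene counting discards reads that overlap more than 1 gene. The deposited values are therefore a normalised read signal, in which each library's counts were divided by its size factor. Whole reads were recovered by dividing each library by its smallest positive value: 100% of 116676 values were whole, with deviations of at most 6.3e-09.

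Normalised reads were compared between genotypes in limma 3.58.1 (R 4.3.3) (two-sided, trended variance) after the transformation log2(value + 1). The 15948 genes tested had 10 or more reads in 2 or more libraries, with Benjamini-Hochberg adjustment and a threshold of 0.05. Fold changes on this scale understate the change of low genes. Alternatives were edgeR 4.0.16 and DESeq2 1.42.0 on recovered reads, the replicate number as a block, other pseudocounts, filters and scalings, and leaving out each library. Scripts were tested on simulated data.

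The members and lists were chosen with earlier results of these data known. Named genes were all 10 members, for each other list up to 5 genes per direction past the adjusted threshold and the 5 with the largest difference among those with a mean of at least 100 and the same sign in all 3 pairs, and the 5 genes most correlated with *H19* and with *Igf2*. Chromosomal neighbours and others were named after their values were seen. Positions and exon lengths are from GENCODE M21 (GRCm38), since the table holds no coordinates.

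Deviations from group means of same-numbered WT and CharmeKO libraries had correlations across genes of 0.762 (number 1), 0.514 (number 2) and 0.217 (number 3), each above 0.1, and the numbers were taken to pair the libraries. Other combinations gave -0.643 to 0.222. The highest of them, WT 2 with CharmeKO 3, was not below the same-numbered pair 3, and the labels state no pairing. The third pair is therefore the least certain. Totals of 38330019 to 46797446 reads mean that a gene at 0 reads could lie at up to 3 reads, or 2.61 to 3.30 normalised reads, for counting error only. Plots were drawn with matplotlib.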

Additional observations from a re-analysis of the deposited data

How the results depend on the processing

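limma called 0 genes, and none of the imprinted growth genes, under the stated design, and also with the replicate block, other pseudocounts, other filters on low reads, library totals or TMM scaling, and with each library left out (0 to 0 genes). DESeq2 called 8 genes, none of them among the 9 imprinted growth genes with an adjusted p (*Igf2* had none). DESeq2 with the replicate block called 64, including 2 of the 10, *H19* and *Grb10*, and the markers *Dpt* and *Myh11*; the cause was not tested. In limma and edgeR, which called 0 with or without the block, the block changed no call. The log2 difference of *Igf2* was 7.52 in edgeR and DESeq2 against 3.47 in limma, and with the replicate block 3.08 in edgeR, 2.40 in DESeq2 and 3.47 in limma. Leaving out 1 library moved it between 0.55 (without CharmeKO 2) and 5.61, *H19* between 0.49 (without CharmeKO 2) and 4.32, *Igf2r* between -0.52 and -0.22, *Grb10* between -0.78 and -0.46, *Meg3* between -1.83 and -0.36, *Peg3* between -1.33 and -0.14 and *Plagl1* between -1.01 and -0.16. *Cdkn1c* (-0.20 to 1.32), *Dlk1* (-0.50 to 1.06) and *Mest* (-1.13 to 0.67) changed sign. *H19* has fewer than 10 reads in WT 1 and was not tested where 10 reads were required in all 6 libraries. With 3 libraries per group and 6 to 34 reads of *H19* or *Igf2* in the libraries numbered 1, small differences of these genes were not detectable.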
